A study of Mus musculus with 4 samples.

Results

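The intron peaks far from start sites are intervals bound by XBP1s that lie inside the introns of genes, away from any promoter in the authors' annotation. They were taken from 1 deposited list of peaks as the rows annotated to an intron, not labelled as a CpG island, and with a centre more than 5000 bp from the nearest transcription start site (TSS) listed by the HOMER annotation program. The rule gave 328 of 4890 peaks (6.71%), which is 31.6% of the 1037 intron peaks. A further 17 intron peaks beyond 5000 bp carried the CpG label and were left out. The rule used no measured signal, but it fixed the class, the label and the lower limit of the distance, so these are no findings.

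The study used ChIP-seq, the sequencing of DNA that is crosslinked to a protein and precipitated with it, to map XBP1s in natural killer (NK) cells from the spleens of Il15TgXbp1f/f mice, strain C57BL/6, that had been given IL-15 at 50 ng/ml for 1 h. The label names an Il15 transgene and a floxed Xbp1 allele. Nothing in the labels gives the promoter of the transgene, a Cre, the age of the mice or any pooling of animals. The 4 libraries were 2 immunoprecipitations with an antibody to XBP1s and 2 inputs, and both groups came from cells of this genotype and treatment. The labels do not say which of them each interval came from, and the list holds no value of any single library, so no peak has a replicate error, the depth is unknown and no test over samples was possible. The score is 0 for every peak, so beyond its position, annotation and distance to a start each peak has its width as the only other quantity. A width is not a measure of signal, and how the intervals were cut from the calls on single libraries is not stated in the labels.

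XBP1s is the transcription factor made when the kinase IRE1 splices Xbp1 messenger RNA during the unfolded protein response, and it is best known for binding close to the starts of genes of the endoplasmic reticulum (ER) and of secretion. It belongs to the basic leucine zipper factors and recognises short elements with an ACGT centre. Introns of long genes often hold enhancers, DNA elements that act on a promoter at a distance, and the gene they act on need not be the one that holds them or the nearest one. Occupancy alone does not show such an action.

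The bases of the far intron peaks themselves were read in 1 case, where a peak lies over a start in the RefSeq table of promoter windows (GRCm38.p6, the assembly of mm10). This 306 bp peak (chr11:119191729-119192034) is in intron 3 of 11 of Tbc1d16, which encodes a regulator of RAB GTPases. HOMER placed it 36618 bp downstream of the Tbc1d16 start, but its centre lies 70 bp from the start of Gm36111, a gene model of the RefSeq table. The 222 bases under the peak and upstream of that start (chr11:119191729-119191950, plus strand) are printed because they hold the unfolded protein response element TGACGTGG on the minus strand. It reads CCACGTCA on the printed strand, starts at base 148 counted from 1 at the left end, and is in capitals.
Tbc1d16 intron 3: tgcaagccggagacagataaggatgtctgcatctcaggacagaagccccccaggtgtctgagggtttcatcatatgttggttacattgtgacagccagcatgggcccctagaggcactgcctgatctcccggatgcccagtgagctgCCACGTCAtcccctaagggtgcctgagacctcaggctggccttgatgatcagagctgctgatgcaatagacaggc

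The next sequences come from promoters of genes that held a far intron peak and also had a peak that covers at least part of the bases just before a start. Each is the 250 bases before a RefSeq start, on the strand of the gene, with the searched motifs that lie within the peak in capitals. They are shown so that the start of a gene can be set beside its introns in the results that follow. The promoters printed all hold a searched motif within the peak and are not all that were read. Those of Bcl2 and Prf1, for example, held none there and are not printed. For Cblb, a ubiquitin ligase that restrains immune receptor signalling (chr16:52031299-52031548, plus strand), the capitals mark CCACG on the minus strand at bases 127 and 136. CCACG is the part shared by the ER stress element and the unfolded protein response element.
Cblb: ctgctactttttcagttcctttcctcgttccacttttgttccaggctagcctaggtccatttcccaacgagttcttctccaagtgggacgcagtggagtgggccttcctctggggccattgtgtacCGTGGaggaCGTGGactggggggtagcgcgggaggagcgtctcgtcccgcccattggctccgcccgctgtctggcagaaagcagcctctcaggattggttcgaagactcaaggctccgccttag
For Os9, a lectin of ER-associated degradation (chr10:127121161-127121410, minus strand), the capitals mark CCACG at base 155.
Os9: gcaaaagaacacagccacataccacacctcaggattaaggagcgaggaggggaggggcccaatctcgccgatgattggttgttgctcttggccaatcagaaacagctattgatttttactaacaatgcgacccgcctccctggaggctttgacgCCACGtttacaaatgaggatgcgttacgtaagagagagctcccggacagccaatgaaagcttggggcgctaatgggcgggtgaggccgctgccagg
For Irf2, an interferon regulatory factor (chr8:46739495-46739744, plus strand), the capitals mark TTCNNNGAA, the pattern bound by STAT factors, at base 27.
Irf2: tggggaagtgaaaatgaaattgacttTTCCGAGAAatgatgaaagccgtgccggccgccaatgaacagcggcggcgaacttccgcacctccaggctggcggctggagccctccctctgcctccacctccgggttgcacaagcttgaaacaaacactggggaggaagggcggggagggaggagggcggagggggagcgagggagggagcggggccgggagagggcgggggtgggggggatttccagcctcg

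Of 372 genes that hold or are nearest to a far intron peak, 274 had a window in that table, and 51 of their 365 windows overlapped a peak. The table is not complete. Of these 51 windows, 26 held CCACG in the 250 bases before the start (51.0%, exact 95% interval 36.6 to 65.2), against 51.1% of 3569 windows under any peak and 28.3% of all 32851 windows. TGACGTGG was in 1 of the 51 (1.96%), against 1.57% of windows under a peak and 0.563% of all. The cyclic AMP response element TGACGTCA was in 3 (5.88%, against 5.13% and 1.55%), the ETS core CCGGAA in 15 (29.4%, against 34.3% and 12.03%) and the AP-1 pattern TGANTCA in 5 (9.80%, against 3.53% and 6.75%). TTCNNNGAA was in 4 (7.84%, against 6.14% and 7.02%), and the T-box letters AGGTGTGA in 1 (1.96%, against 0.588% and 1.12%). The RUNX letters TGTGGTTT, the ER stress element (ERSE) and its second form (ERSE-II) were in none of the 51, and in 0.728%, 0.420% and 0.140% of windows under any peak. Both strands were searched, and CCACG matches inside TGACGTGG and both ER stress forms count for each motif. So CCACG was about as frequent before these starts as before all starts whose windows overlapped a peak. These letters describe the starts of the genes and say nothing about the far intron peaks, whose bases were not read except in Tbc1d16.

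The far intron peaks were narrow. Their median width was 299 bp (95% interval of the median 283 to 317; interquartile range 224 to 418.5), with a range from 10 bp in intron 2 of Foxk1 to 1248 bp in intron 8 of Irf2, and together they covered 114 kb. Intron peaks within 5000 bp of a start had a median of 332 bp (309 to 353, n = 330), and intergenic peaks beyond 5000 bp one of 313 bp (296 to 328, n = 499). The intergenic class kept 59 peaks labelled as CpG islands, while both intron classes held none. All 4890 peaks had a median of 373 bp. The intervals of the medians overlap between the far intron peaks and either of these classes. The upper ends differed more: 8 far intron peaks (2.44%, exact 95% interval 1.06 to 4.75) were among the widest 10% of all peaks, compared with 35 near intron peaks (10.6%, 7.50 to 14.4) and 27 far intergenic peaks (5.41%, 3.60 to 7.78). Peaks are not replicates, so these differences were not tested. The intervals given for percentages are exact (Clopper-Pearson) and cover counting error only.

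**Figure D1:**
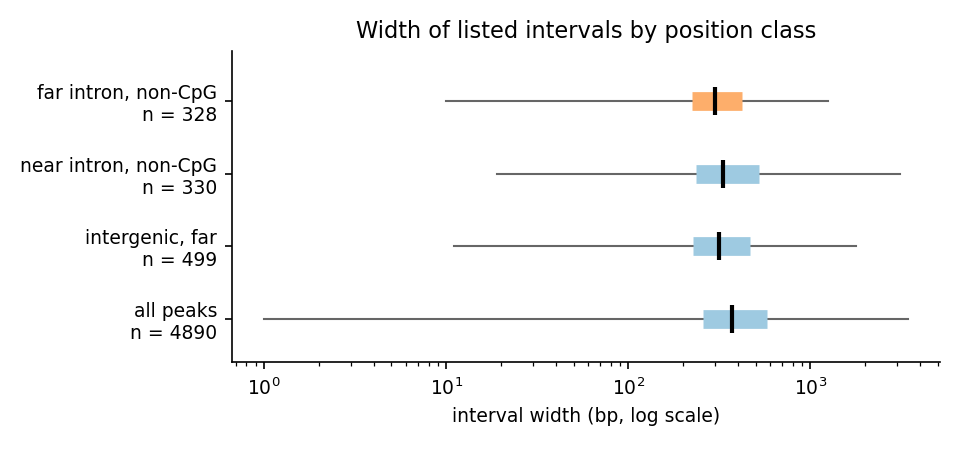
Width in bp (log axis) of the intervals of 4 classes. Bars span the interquartile range, black marks are medians and thin lines run from the narrowest to the widest interval. The medians are 299 bp for the far intron peaks, 332 bp for near intron peaks, 313 bp for far intergenic peaks and 373 bp for all peaks.

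Width varied little with the other features of the peaks. The median was 295 bp in first introns (101 peaks) and 300 bp in later introns (227 peaks). It was 288 bp for the 147 peaks up to 20 kb from a start and 322 bp for the 67 beyond 50 kb, 298 bp where the host gene was also the nearest gene and 306 bp where it was not. The intervals of these medians overlap within each pair.

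The widest far intron peak was in the last intron of Irf2 (1248 bp, chr8:46844610-46845857), 105488 bp from the start and 2225 bp from the end of the gene. It was followed by further peaks of 566 and 314 bp, both annotated as intergenic, beyond that end. The second was in intron 1 of Ptp4a3, a phosphatase of the PRL family (1213 bp, chr15:73731897-73733109, 7573 bp downstream of the start), and the third in intron 1 of the receptor phosphatase gene Ptpra (1093 bp, chr2:130472262-130473354), which HOMER labels with the SINE element B1_Mur2. Next came intron 45 of 56 of Itpr2, an IP3 receptor calcium channel (1017 bp), intron 86 of 89 of Adgrv1 (1003 bp), intron 27 of 28 of the guanine nucleotide exchange factor gene Arhgef10 (952 bp), intron 13 of 15 of Padi2, a protein arginine deiminase (925 bp), and intron 2 of 7 of Emilin2 (857 bp). A peak of 814 bp assigned to Irf1 (chr11:53794683-53795496) lay 24616 bp downstream of that start, in intron 3 of the noncoding gene Gm12216. The receptor phosphatase gene Ptprj (789 bp), the syntaxin gene Stx8 (788 bp) and Fndc3b (787 bp) completed the 12. In all, 54 far intron peaks were at least 500 bp wide and 5 at least 1000 bp, while 43 (13.1%) were narrower than 200 bp.

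The peaks lay at a median of 22.7 kb from the nearest listed start (interquartile range 11.9 to 42.7 kb); with upstream distances counted as negative the median was 12987.5 bp. There were 61 between 5 and 10 kb, 86 between 10 and 20 kb, 114 between 20 and 50 kb, 42 between 50 and 100 kb and 25 beyond 100 kb. HOMER placed 244 downstream of the nearest start (74.4%, 69.3 to 79.0) and 84 upstream. The 5 farthest were nearest to Myo16 (327124 bp), Itpr2 (280298 bp), Rora (255150 bp), the noncoding gene 9330111N05Rik (212636 bp, in Adgrv1) and Tcf4 (201608 bp). The Rora peak, 205 bp wide in intron 1 of this nuclear receptor gene, was listed upstream because HOMER measured it to a start of a shorter Rora transcript. Just inside the limit were peaks at Sept9 (5093 bp), Bcl3 (5183 bp) and Tmcc3 (5242 bp), and just outside it peaks at Sh3bp2 (listed at -4923 bp), Fam189b (4904 bp) and Pag1 (4860 bp).

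Starts that HOMER did not use put a few of the peaks closer. Of the 317 peaks on chromosomes that the RefSeq promoter table covers, 15 lay within 5000 bp of some start in it and 4 within 1000 bp. Besides the Tbc1d16 peak these 4 were a peak in Chst12, 261 bp from the start of Gm38728, a peak in intron 1 of Tpst2, 327 bp from another start of Tpst2 itself, and a peak in Bcl3, 987 bp from the start of Gm16174. A further check against both ends of every RefSeq gene found 61 peaks (18.6%) within 5000 bp of a gene end. The Itpr2 peak, second in distance by HOMER, lay 2183 bp from the start of Gm35596. Most of the 317 were thus far from any start in either source, and the other 11 could not be checked.

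**Figure D2:**
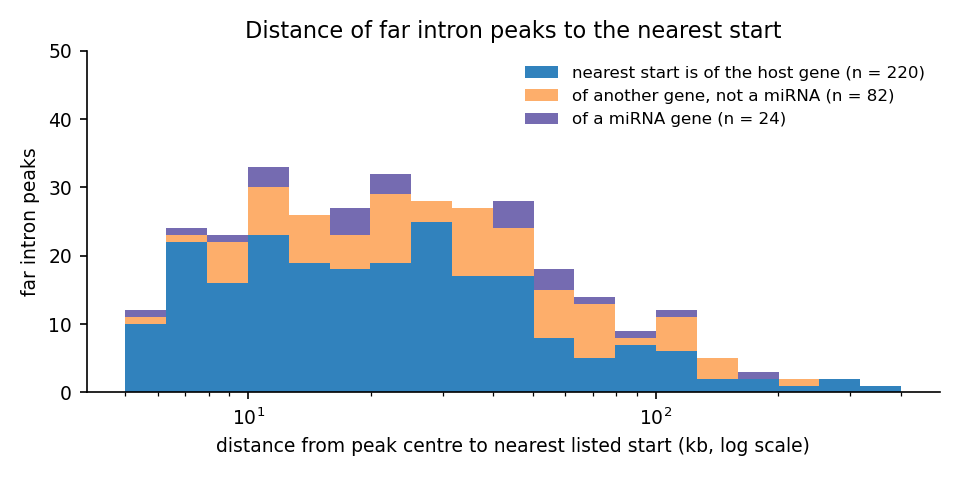
Distance in kb (log axis) from each peak centre to the nearest listed start, for 326 far intron peaks whose host gene was identified. Bars are stacked by whether that start belongs to the host gene (220), to another gene that is not a miRNA gene (82) or to a miRNA gene (24), and most peaks lie below 50 kb.

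Within their host genes the peaks were spread along the whole length. The transcript that HOMER names was matched to a RefSeq gene that overlaps the peak for 326 of the 328 peaks. First introns held 101 (30.8%, 25.8 to 36.1), second introns 67 (20.4%) and later ones 160 (48.8%), and 44 were in the last intron. Among near intron peaks 81.5% were in intron 1, and the distance limit alone can set such a difference. For 280 peaks the strand of the host was known: with each host split into 4 equal lengths from its 5′ end, 58 lay in the first, 75 in the next, 84 in the next and 63 in the last. The 264 protein-coding hosts had a median length of 99.0 kb, compared with 17.1 kb for all 21900 protein-coding genes. A gene must be longer than the distance limit to hold most such peaks, so the length is in part set by the rule.

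The gene that held a peak was often not the one HOMER listed as nearest. Host and nearest gene differed for 106 of 326 peaks (32.5%, 27.5 to 37.9), compared with 3.64% of near intron peaks (1.89 to 6.27). The distance limit alone can set such a difference. With a limit of 2000 bp the share was 27.4%, and with 10000 bp it was 35.6%. In these 106 cases the nearest gene was protein-coding in 65, a miRNA gene in 24 and a long noncoding RNA gene in 12. In the other 220, 203 peaks were downstream of the listed start and 17 were upstream of it, that is, of a start inside the gene. The 24 peaks nearest to a miRNA gene involved 21 miRNA genes. Their assignments put protein-coding genes out of sight: peaks in Bcl2 were listed under Mir3473f, 1 in Rptor under Mir5098, 1 in the adaptor gene Grap2 under Mir6957, and peaks in Vmp1 under Mir21a.

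Vmp1, which encodes a membrane protein of autophagy, illustrates this arrangement. Its 2 far intron peaks were 394 bp in intron 7 of 11 (chr11:86624203-86624596) and 312 bp in intron 10 of 11 (chr11:86593100-86593411). They lay 40241 and 9097 bp upstream of Mir21a, whose product miR-21 is a widely expressed miRNA of immune cells, and 59.4 and 90.6 kb from the 5′ end of Vmp1. The Vmp1 start had a peak of 636 bp. The mature sequences of both arms are given from RefSeq with bases 2 to 8, the seed by which a miRNA pairs with its targets, in capitals.
mmu-miR-21a-5p: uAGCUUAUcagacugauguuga
mmu-miR-21a-3p: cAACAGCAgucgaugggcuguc
The list does not show whether either peak bears on Mir21a or on Vmp1.

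Peaks recurred in some genes. The 326 peaks fell in 276 host genes, of which 237 held 1, 30 held 2, 7 held 3 and 2 held 4. Peaks of 1 gene share a locus and are not independent. Another far intron peak lay within 10 kb for 54 of the 328 (16.5%, 12.6 to 20.9). Among far intergenic peaks 23.8% (20.2 to 27.8) had another of their class within 10 kb. Near intron peaks more often had a peak of any class that close (49.1%, 43.6 to 54.6) than far intron peaks did (20.7%, 16.5 to 25.5). Near intron peaks lie close to starts by definition, so the distance limit alone can set this difference.

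The densest group was in Lcp1, which encodes L-plastin, the actin-bundling protein of leukocytes. Its 4 peaks of 263, 233, 434 and 110 bp all lay in intron 2 of 16, with centres within 3816 bp of each other, 40559 to 44375 bp downstream of the listed start (chr14:75176853-75180855 from the first to the last). No peak was assigned to the Lcp1 start. Sept9, a septin of the cytoskeleton named Septin9 in RefSeq, also held 4, of 298, 405, 289 and 127 bp, but these were spread over 80.2 kb of introns 2 and 3 of 11. Litaf, which encodes a protein of late endosomes, held 3 in intron 1 (318, 287 and 195 bp, 12043 to 23592 bp from the start). Tpst2, a tyrosine sulfotransferase of the Golgi that acts on secreted and membrane proteins, held 3 in intron 1 within 4381 bp (231, 198 and 295 bp). Vgll4, a cofactor of TEAD factors, held 3 in intron 2 (312, 298 and 384 bp), Cmip 3 in intron 1 (336, 614 and 156 bp) and the membrane protease gene Tmprss6 3 in introns 6 and 10 (645, 433 and 421 bp). Arhgef10 held 3, of 546, 179 and 952 bp, all listed under its neighbour Kbtbd11. The spans differed widely, from 3.82 kb in Lcp1 to 80.2 kb in Sept9.

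Bcl2, the anti-apoptotic gene that gives the BCL2 family its name, held 3 far intron peaks in its single large intron. They were 322 bp (chr1:106612819-106613140), 317 bp (chr1:106606981-106607297) and 445 bp (chr1:106600964-106601408), at 101, 107 and 113 kb from the 5′ end of the gene. HOMER listed them 66348, 60508 and 54555 bp upstream of Mir3473f. Bcl2 also had a peak of 366 bp at its start. A count of peaks by nearest gene therefore credits Bcl2 with its start peak alone.

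**Figure D3:**
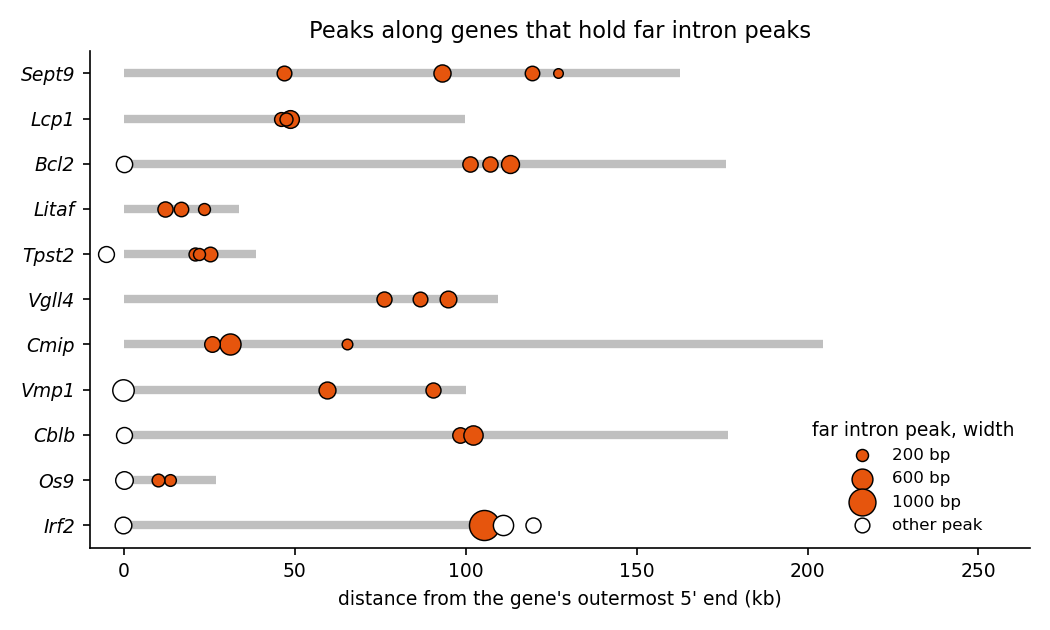
Far intron peaks (filled circles) and other peaks (open circles) along 11 genes, as distance in kb from the outermost 5′ end of the RefSeq gene; grey lines are gene lengths and circle area is proportional to interval width. The 4 peaks of Lcp1 lie together, those of Sept9 are spread out, and open circles mark peaks at or just before the starts of Bcl2, Vmp1, Cblb, Os9 and Irf2.

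The next question was whether genes with far intron peaks also carried a peak at their start. A gene counted as having one when it was the nearest gene of a peak centred within 5000 bp of its TSS, which held for 15.9% of the 21900 protein-coding genes. Of the 264 protein-coding host genes 61 had one (23.1%, exact 95% interval 18.2 to 28.7). Of the 247 protein-coding nearest genes 66 did (26.7%, 21.3 to 32.7), and of the 301 protein-coding genes nearest to a far intergenic peak 96 did (31.9%, 26.7 to 37.5). A narrower measure asked whether the window from 250 bp before to 50 bp after a RefSeq start lay under a peak, whatever its assigned gene. This held for 36 of 210 host genes with a window (17.1%, 12.3 to 22.9) and for 16.2% of 17492 protein-coding genes. The host interval of this measure holds the share of all genes but also overlaps that of the first count. It therefore cannot tell whether the host share is higher. The host genes with a window under a peak but no start peak by the first count were Cct6b, Irf2, Mrps27, Rbks and Rpa1, named after their values were seen. The Irf2 window, for example, overlapped a peak of 383 bp that ended before the Irf2 start and was assigned to the noncoding gene Gm16675. Counted per peak, 72 far intron peaks (22.0%) had a host and 77 (23.5%) a nearest gene with a start peak. With start peaks restricted to 1000 bp, the share of peaks by nearest gene was 17.4%. Counted by gene with that restriction, it was 19.7% of host genes, 21.1% of nearest genes and 15.1% of all protein-coding genes. By either assignment most of these peaks lay in or near genes without a listed start peak, as is true of most protein-coding genes.

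**Figure D4:**
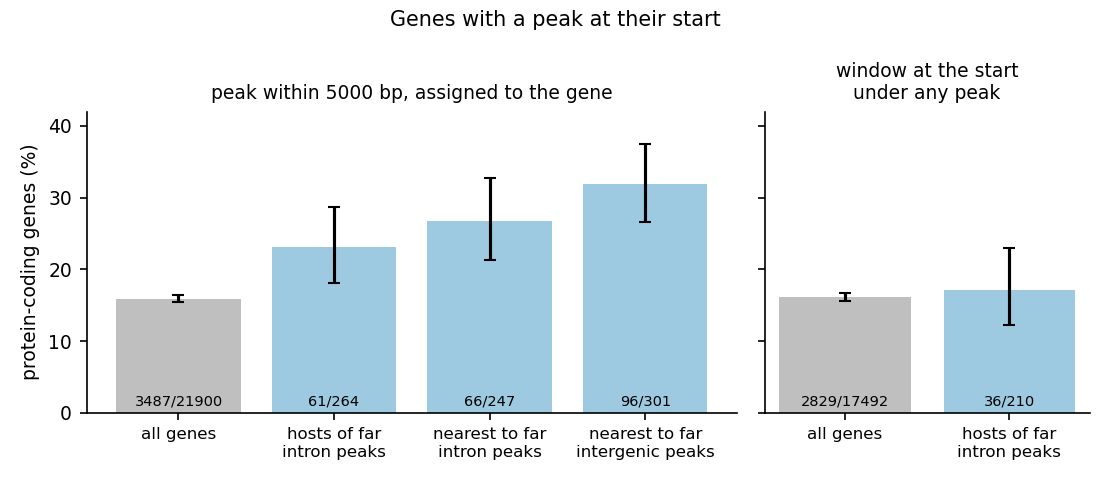
Share in percent of protein-coding genes with a peak at their start. Left, peaks centred within 5000 bp of the TSS and assigned to the gene; right, RefSeq start windows under any peak. Error bars are exact 95% intervals and numbers in the bars are genes; host genes stand at 23.1% against 15.9% of all genes on the left, and at 17.1% against 16.2% on the right.

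Genes that had a start peak and were the host or the nearest gene of a far intron peak were then listed. Each far intron peak was counted at a single gene, its host where the host had a start peak and otherwise its nearest gene. By this count there were 83 genes. The nearest genes B230217C12Rik and Ap5z1, which also had a start peak, were left out because their peaks were counted at the hosts Lasp1 and Foxk1. In 30 of them the intron peak was the wider one, and the medians of the widest peak of each kind were 338 bp for introns and 430 bp for starts. The 10 with the widest far intron peak are as follows. At Ptp4a3 the intron peak was 1213 bp and the start peak 279 bp. At 9330111N05Rik the values were 1003 and 237 bp, and at Emilin2, which encodes a protein of the extracellular matrix, 857 and 236 bp; a second far intron peak of Emilin2, in intron 4 and listed under Lpin2, was 698 bp. Fndc3b had 787 bp in intron 4 and 958 bp at the start, Gm17455 739 and 817 bp, and the metalloprotease gene Adamts14 730 and 514 bp. Gm12596 had 695 and 630 bp, the adenosine receptor gene Adora3 674 and 352 bp, and Fnbp1, which encodes a protein of membrane curvature and actin assembly, 585 and 283 bp. The far intron peaks counted for 9330111N05Rik, Gm17455 and Adora3 lay in introns of other genes, namely Adgrv1, Cdh23 and Tmigd3. The other gene of the 10 was Bach1, a repressor of antioxidant genes and itself a basic leucine zipper factor. There the peak in intron 1, 14264 bp from the start, was 617 bp and the start peak 106 bp.

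Lists of genes fixed for this tissue were then read against the background. Of all protein-coding genes 1.48% held or were nearest to a far intron peak, and 1.37% were nearest to a far intergenic peak. Long genes can hold more such peaks, and length was not matched, so shares above 1.48% are descriptions and were not tested.

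The cytoskeleton, adhesion and migration list had the highest share, 8 of 57 genes (14.0%, 6.26 to 25.8), and the same number, 8, were nearest to a far intergenic peak. The peaks lay in intron 1 of Elmo1 (596 bp, 94819 bp from the start) and of Dock2 (563 bp, chr11:34771386-34771948, 12238 bp from the start), which form a complex that activates the GTPase RAC in migrating lymphocytes. Dock2 had a second peak in intron 1, of 353 bp and 780 bp from the start. Selplg, the ligand of P-selectin, had one of 483 bp at 6027 bp. S1pr4, a receptor of the lipid S1P, was nearest to one of 482 bp in intron 5 of the G protein gene Gna15. The others were in the GTPase-activating protein genes Arhgap25 (409 bp, in an LTR element) and Arhgap26 (227 bp), the myosin gene Myh9 (240 bp) and the ezrin gene Ezr (212 bp). Of these 8 genes Dock2, Selplg and Ezr also had a start peak.

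Of 74 chromatin and transcription regulator genes 6 (8.11%) were nearest to a far intergenic peak, and 9 were hit (12.2%, 5.71 to 21.8), by 12 far intron peaks. Besides Bach1, Fli1, an ETS factor of blood cells, held 2 in intron 1, of 535 and 515 bp (chr9:32504035-32507735 from the first to the last). The DNA methyltransferase gene Dnmt3a held 2 in intron 4, of 365 and 283 bp, listed under Dnmt3aos, and was nearest to 1 of 339 bp in Dtnb. The histone demethylase gene Kdm6b had a peak of 344 bp, and the lymphocyte factor gene Runx1 one of 343 bp, 76262 bp from the listed start. The ETS factor gene Elf1 had 310 bp in intron 1. The histone deacetylase gene Hdac4 had a peak of 276 bp and Rora one of 205 bp. Of the genes named here Bach1, Runx1, Elf1 and Hdac4 also had a start peak.

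Among 30 NK effector genes 4 (13.3%) were nearest to a far intergenic peak, and 3 were hit by far intron peaks (10.0%, 2.11 to 26.5). Prf1, which encodes the pore-forming protein perforin, was nearest to a peak of 511 bp in intron 18 of 19 of Pald1 (chr10:61334612-61335122), 37031 bp downstream of the Prf1 start. Gzma, which encodes the protease granzyme A, was nearest to a peak of 374 bp in the last intron of Cdc20b (chr13:113087526-113087899), 13269 bp downstream. Its locus also had intergenic peaks upstream of the start, of 210 bp at -1119 bp and of 339 bp at -4057 bp. Rab27a, a GTPase needed for the release of lytic granules, held a peak of 469 bp in intron 5, in an LTR element, listed under Khdc3. So for Prf1 and Gzma the far intron peak lay in an intron of a neighbour, not in the effector gene itself. Prf1 also had a start peak, of 693 bp at -351 bp. Of 54 NK identity, receptor and lineage factor genes none was hit. The exact interval reaches 6.60%, so in a list of this size the background share of 1.48% could not have been told from none. Of the same 54 genes, 10 (18.5%) were nearest to a far intergenic peak, among them Ncr1, Eomes, Nfil3 and Runx3.

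Of 45 genes of IL-15, JAK-STAT signalling and its feedback, 2 were hit (4.44%, 0.543 to 15.1) and 8 were nearest to a far intergenic peak. Il2ra, the alpha chain of the IL-2 receptor, held a peak of 251 bp in intron 1 (chr2:11653328-11653578, 10661 bp from the start) and had no start peak. Dusp6, a phosphatase that ends ERK signalling, was nearest to a peak of 487 bp in intron 12 of Poc1b, 68523 bp upstream. Dusp6 also had 2 start peaks, the wider of 427 bp. Of 63 immune receptor signalling genes 3 (4.76%) were nearest to a far intergenic peak, and 4 were hit (6.35%, 1.76 to 15.5), by 6 far intron peaks. Ptprj held 2 in intron 1 (789 and 46 bp) and Cblb 2 in introns 4 and 5 (329 and 512 bp), 97956 and 101686 bp from the start printed above. Grap2 and the calcium-dependent factor gene Nfatc1 held 1 each of 184 bp.

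Of 36 survival and apoptosis genes 2 were hit (5.56%, 0.680 to 18.7), Bcl2 as described and Bcl2l1, the gene of the anti-apoptotic protein BCL-XL, with a peak of 213 bp in intron 2 listed under Cox4i2. Both also had a start peak. Of the same 36 genes, 2 (5.56%) were nearest to a far intergenic peak. Of 30 genes of PI3K, AKT, mTOR, FOXO and MYC, none was nearest to a far intergenic peak. Rptor, the scaffold of the mTORC1 kinase complex, was the only one hit by far intron peaks. Its peaks of 536 and 650 bp lay in introns 17 and 19 of 32, 254 and 261 kb from the 5′ end.

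Of 104 ER, secretory and unfolded protein response genes 90 had a start peak (86.5%), and 2 were hit by far intron peaks (1.92%, 0.234 to 6.77), near the background of 1.48%. Of the same 104 genes, 6 (5.77%) were nearest to a far intergenic peak. Start peaks were also common in other lists, with 44.4% of survival, 43.9% of cytoskeleton, 41.9% of chromatin and 36.7% of NK effector genes. The interval of the far intron share overlaps those of all the other lists, and no difference between lists was tested. The 2 ER genes hit by far intron peaks were Srp68, a subunit of the signal recognition particle (280 bp, intron 8), and Os9 (223 and 189 bp, both in intron 5, 9965 and 13389 bp from the start printed above). Both had start peaks. The study's title concerns a loop between XBP1s and PIM-2, and neither Pim2 nor Xbp1 held or was nearest to a far intron peak. Xbp1 was, however, nearest to a far intergenic peak.

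Markers of other cells had none: 0 of 20 T cell, 20 B and plasma cell, 20 myeloid, 19 erythroid, 25 liver and 25 neuron genes were hit. With lists of this size the exact intervals reach from 13.7% to 17.6%, so a share at the background level could not have been told from none. Occupancy does not measure expression, so the lists do not check which cells were present.

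**Figure D5:**
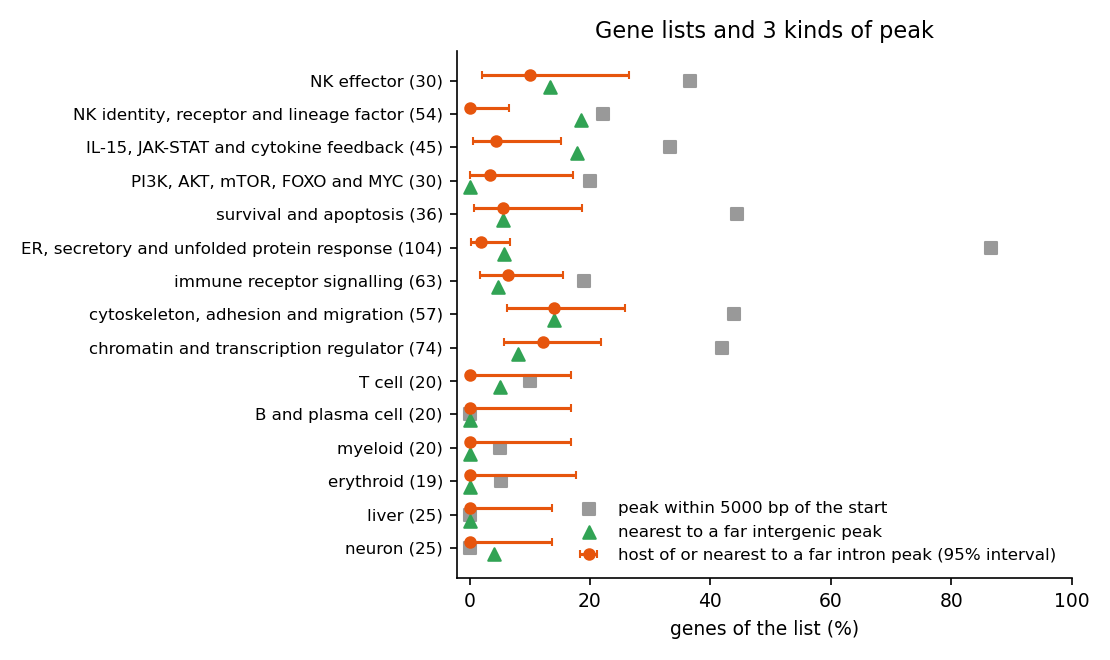
Share in percent of the genes of 15 lists (number of genes in brackets) that host or are nearest to a far intron peak (circles, with exact 95% intervals), are nearest to a far intergenic peak (triangles) or have a start peak within 5000 bp (squares). ER and secretory genes stand at 86.5% for start peaks and 1.92% for far intron peaks.

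HOMER's detailed annotation named a repeat element for 35 far intron peaks (10.7%, 7.55 to 14.5). The share was 12.02% in far intergenic peaks (9.30 to 15.2), 6.36% in near intron peaks (3.98 to 9.56) and 2.49% in all peaks. Of the 122 peaks with a repeat label in the list, 60 were far intergenic and 21 near intron peaks, so few were in other classes. The far intergenic peaks also include 59 with a CpG label, which the far intron peaks leave out. The elements of the far intron peaks were LTRs in 13 peaks, SINEs in 13 and LINEs in 7, with 1 DNA transposon and 1 simple repeat. Far intergenic peaks held 28 LTRs, 12 SINEs and 15 LINEs. The commonest family was ERVL-MaLR, an old class of LTR retrotransposon, with 7 peaks, 3 of them in the element ORR1F. The simple repeat was a run of GGAA. Peaks in repeats had a median width of 271 bp (220 to 336), against 306 bp (285 to 320) for the rest. How much of all intron sequence consists of such elements was not measured here, so these shares have no genomic reference.

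The peaks were found on chromosomes 1 to 19 and X. Chromosome 5 held most, 35, or 10.7% of its 328 listed peaks of all classes (7.55 to 14.5), followed by chromosome 11 with 33 (7.04% of 469) and chromosome 4 with 28 (8.83% of 317). Chromosome 12 had 6 (3.41% of 176, 1.26 to 7.27), chromosome 3 had 9 (3.91% of 230) and chromosome X had 1 (1.39% of 72, 0.0352 to 7.50). Over all chromosomes the far intron peaks were 6.71% of the list, and the interval of chromosome 5 alone among these 6 lies above that value; with 20 chromosomes compared and no test, it is a description.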

How the data were processed

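One deposited peak list was analysed, from XBP1s ChIP-seq of mouse splenic NK cells (2 immunoprecipitations, 2 inputs). Per the file headers, the authors ran HOMER's annotatePeaks.pl on intervals named common with build mm10. Per the submitters' processing notes, reads went through FastQC 0.11.9 and Trim Galore 0.6.7, then Bowtie2 2.4.5; the notes also list HOMER (4.11 and 4.11.1) and MACS2 2.2.7.1 for the peaks. No source used here gives the threshold or the way calls were combined. The score the authors deposited is 0 throughout. Positions and distances are as deposited, 1-based.

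Widths are end minus start plus 1. Host genes come from the transcript HOMER names, matched to a RefSeq gene (GRCm38.p6) that overlaps the peak; 4885 of 4890 nearest genes matched. Strand came from the promoter table or, within 10 bp, from HOMER's distances. Medians carry distribution-free 95% intervals. The work used SciPy 1.17.1, NumPy 2.4.6 and pandas 2.3.3 under Python 3.11.15, with matplotlib 3.10.9 for figures; the rule was tested on simulated data. The peaks and the 15 gene lists (624 entries, 1 unmatched) were chosen with earlier results of these data known. Genes were named by a fixed rule: the 12 widest and 5 farthest peaks, list genes, genes with 3 or more peaks, peaks at the distance limit, and the 10 widest at genes with a start peak. Motifs within peaks were not searched because no genome was used here, except where a promoter window overlapped one. One gene that is counted in its list is not reported here by name.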

Additional observations from a re-analysis of the deposited data

How the results depend on the processing

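The number of peaks, their median width and distances, and the shares in intron 1, in a gene other than the nearest, in repeats and with a start peak were recomputed with other distance limits, widths, labels and start definitions; motif, list, clustering and chromosome shares were not. Of 73 such values, 62 stayed within the interval of the reported value or, for the number of peaks, within 1.5 times it, and the number of peaks ranged from 267 to 418. With a limit of 2000 bp, the share in intron 1 was 38.5%, the share in a gene other than the nearest 27.4%, and the median distance 15816.5 bp (signed 8545 bp). The shares with a start peak were then 36.8% by host and 40.0% by nearest gene. Start peaks were still counted up to 5000 bp, so each peak added by the 2000 bp limit is itself a start peak of its nearest gene. The rise of these 2 shares is thus set by the definition and shows nothing about the far intron peaks. With a limit of 10000 bp, the share in intron 1 was 25.5% and the median distance 27725 bp (signed 19189 bp). With peaks of at least 200 bp the median width was 322 bp. With start peaks within 1000 bp the share by nearest gene was 17.4%. The first 3 settings change which peaks are counted. Removing peaks near any start in the RefSeq promoter table and all alternatives for the unsigned distance were chosen after seeing the data. Removing the widest 1% of all peaks took none of the far intron peaks. The values of that setting could not move, but they are counted among the 62. Leaving out each replicate in turn was not run. No paired analysis was possible because the columns carry no library. Depth is unknown.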
